A study of Homo sapiens with 15 samples.

Results

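The genes described here encode 10 integrin subunits, 5 alpha chains (ITGA1, ITGA2, ITGA3, ITGA6, ITGAV) and 5 beta chains (ITGB1, ITGB4, ITGB5, ITGB6, ITGB8). They were taken by symbol from the 69215 genes of the deposited count tables, and earlier results of these data were known when they were chosen. Low counts removed 1 of the 10, ITGB6, so that 9 members were tested among 12769 genes. Polyadenylated RNA was sequenced from monolayers of Caco-2 cells, an established line from a human colon carcinoma whose sheets resemble absorptive enterocytes. The groups were cells exposed to polysorbate 80 (PS80) at 0.05% for 24 h, cells exposed to polysorbate 20 (PS20) at 0.05% for 24 h, and unexposed control cells, with 5 libraries each. PS80 and PS20 are nonionic food emulsifiers, polyoxyethylene sorbitan esters whose fatty acid part is oleate in PS80 and laurate in PS20. All libraries came from 1 cell line on its own, with no other cell type of the gut wall. No source used here says whether replicates were separate cultures, so the p-values may measure technical spread only, nor how long the monolayers had grown.

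Integrins are transmembrane receptors made of 1 alpha and 1 beta chain that anchor cells to the extracellular matrix and signal to the cytoskeleton. In the gut, ITGA1 and ITGA2 pair with ITGB1 to bind collagens, ITGA3 pairs with ITGB1 to bind laminins, and ITGA6 pairs with ITGB1 or, in hemidesmosomes, with ITGB4. ITGAV pairs with ITGB1, ITGB5, ITGB6 or ITGB8 in receptors that read the Arg-Gly-Asp motif of vitronectin, fibronectin and latent TGF-beta.

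Start-site windows are shown for ITGA1, ITGA6 and ITGAV, which had the smallest p-values of the 10 under PS20. ITGA1 occupies chr5:52787916-52959209, ITGA6 chr2:172427354-172506459 and ITGAV chr2:186590010-186680901, all on the plus strand of GRCh38. The windows are from RefSeq (GRCh38.p14) and hold 250 bases before and 50 after the start, at chr5:52787666-52787965, chr2:172427086-172427385 and chr2:186589806-186590105. For ITGA6 and ITGAV, which have 2 RefSeq windows each, the one whose start lies nearest the annotated gene start is shown. Capitals mark motif matches for the GC box, the CCAAT box, the AP-1 site and the TATA box, searched on both strands in the letters spelled out below.
ITGA1: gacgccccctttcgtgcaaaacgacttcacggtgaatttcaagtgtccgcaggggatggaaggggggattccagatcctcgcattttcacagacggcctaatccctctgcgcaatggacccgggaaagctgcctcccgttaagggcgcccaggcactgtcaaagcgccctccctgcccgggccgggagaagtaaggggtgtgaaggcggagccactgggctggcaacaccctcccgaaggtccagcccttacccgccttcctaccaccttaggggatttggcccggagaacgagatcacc
ITGA6: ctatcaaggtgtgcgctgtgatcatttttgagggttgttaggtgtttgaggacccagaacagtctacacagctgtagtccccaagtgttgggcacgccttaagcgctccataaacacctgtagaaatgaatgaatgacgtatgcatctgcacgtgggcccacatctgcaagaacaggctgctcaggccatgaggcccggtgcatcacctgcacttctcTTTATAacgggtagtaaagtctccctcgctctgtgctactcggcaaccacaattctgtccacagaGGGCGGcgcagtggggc
ITGAV: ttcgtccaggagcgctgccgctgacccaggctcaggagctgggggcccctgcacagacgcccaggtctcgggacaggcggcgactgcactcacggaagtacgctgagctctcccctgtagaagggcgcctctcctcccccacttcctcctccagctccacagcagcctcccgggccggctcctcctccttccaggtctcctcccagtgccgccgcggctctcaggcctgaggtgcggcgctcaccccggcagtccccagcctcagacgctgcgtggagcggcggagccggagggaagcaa
The ITGA6 window held 1 GC box and, on the opposite strand, 1 TATA box, and the other two held no match. The second ITGA6 window, whose start lies 250 bases downstream, held 3 GC boxes and no TATA box, with 72.0% GC, and the second ITGAV window held no match, with 41.3% GC. The GC box, searched as GGGCGG, occurred in 44.95% of 35116 windows of this length. The CCAAT box, searched by those letters, occurred in 34.61% of them. The TATA box, searched as TATAAA, occurred in 11.53%. The AP-1 site, searched as TGANTCA, occurred in 7.71%. Windows were found for 8 of the 10 members, ITGA3 and ITGB4 being the others. GC content was 61.7% in the ITGA1 window, 53.0% in the ITGA6 window and 70.7% in the ITGAV window, beside a median of 58.7% over all windows. A match describes letters in the window and was not tied to the binding of any factor.

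Total counts per library were 6769409 to 42271053 with PS80 (median 10120136), 6749086 to 17251564 with PS20 (median 8335083) and 4183096 to 13616301 in control (median 7291913). The authors counted 4 of the 5 PS80 libraries with another version of featureCounts than the other 11, so that counting and PS80 cannot be told apart as sources of a difference. The exception among PS80 libraries was replicate 2, which was also the deepest. Of 9 intestinal epithelium markers, 7 were tested. Their summed level was 9877 to 10366 CPM (counts scaled to library size) with PS80, 8042 to 8664 CPM with PS20 and 9514 to 11149 CPM in control. With PS20, KRT8 fell by 0.73, KRT18 by 0.61 and VIL1 by 0.29 on the log2 scale, and CDX2 and CDH1 rose by 0.37 and 0.12. With PS80, CDX2 rose by 0.38 and the other 6 tested epithelial markers were not called. KRT20 was listed at 0 throughout, but the annotation holds a scaffold copy of it and of LGALS4, so neither was read as a level. The list of 14 fibroblast, endothelial and blood cell markers, 5 of them tested, summed to 56.9 to 70.6 CPM with PS80, 54.8 to 69.5 CPM with PS20 and 67.4 to 74.3 CPM in control. HBB was at 0 in every library, and DCN, CDH5 and KDR were at 0 in nearly all. PTPRC shares 30 of its 64 exon lengths with a scaffold gene, so its low counts were not read as a level. VWF averaged 0.397 CPM with PS80, 0.636 CPM with PS20 and 0.447 CPM in control. LUM averaged 2.11, 1.58 and 1.26 CPM in the same order. COL3A1 averaged 16.5 CPM with PS80, 18.8 CPM with PS20 and 19.8 CPM in control. PDGFRB ranged over 12.4 to 19.2 CPM with PS80, 12.2 to 18.0 CPM with PS20 and 23.2 to 39.1 CPM in control, and fell by 0.85 with PS80 and by 1.01 with PS20 on the log2 scale. CD14 rose by 0.40 with PS80 and by 0.49 with PS20, and PECAM1 rose by 0.56 with PS80. In bulk RNA fewer cells of a type and less RNA per cell cannot be told apart, and the part of these shifts in the results below was not tested.

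Compared by level per kilobase of exon, the order in control was led by ITGB1 at 28.9 CPM per kb and ITGB5 at 26.9 CPM per kb, whose ranges overlapped. ITGB4 (10.2 CPM per kb), ITGA6 (10.1), ITGAV (9.07) and ITGA2 (7.63) followed, each overlapping its neighbour in that order. ITGA1 (5.02) and ITGA3 (4.85) overlapped each other and lay below ITGA2. ITGB8 at 0.282 and ITGB6 at 0.0438 CPM per kb were the lowest, and their ranges overlapped neither each other nor any other member. Thus the collagen receptor chain ITGA1 stood 7th of 10 in control, and it was 8th with PS80 at 4.17 and with PS20 at 2.48 CPM per kb, below ITGA3 without overlap in both. ITGA6 stood 3rd in both exposed groups, at 13.2 CPM per kb with PS80 and 15.1 CPM per kb with PS20. The exon length used was the deposited length, which joins all annotated transcripts and understates the level of genes with long unused exons.

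Against control, ITGA1 was 2.03-fold lower with PS20, ITGA6, ITGA3, ITGAV and ITGB8 were 1.33 to 1.50 times as high, and ITGB5 fell by 0.16 on the log2 scale. Of the 9 members tested, 6 passed (adjusted p under 0.05 in the quasi-likelihood test of edgeR, Benjamini-Hochberg adjusted over all tested genes), while 48.3% of all tested genes were called. The 6 comprised 4 higher and 2 lower, beside 24.4% higher and 23.9% lower among all genes. PS80 changed 5 of 9, where 33.4% of all genes were called: 4 were higher (background 17.4%) and 1 was lower (background 16.0%). ITGA2, ITGA3, ITGA6 and ITGB4 rose with PS80 and ITGA1 fell. Set directly against PS20, PS80 differed in 4 of 9 members (background 35.5%), 2 being higher (ITGA1, ITGA2; background 18.2%) and 2 lower (ITGAV, ITGB8; background 17.3%). The median absolute log2 change of the 9 was 0.41 for PS20 and 0.26 for PS80, beside 0.24 and 0.18 over all tested genes. The 3 comparisons share their libraries in pairs, so their calls are not independent of each other.

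**Figure D1:**
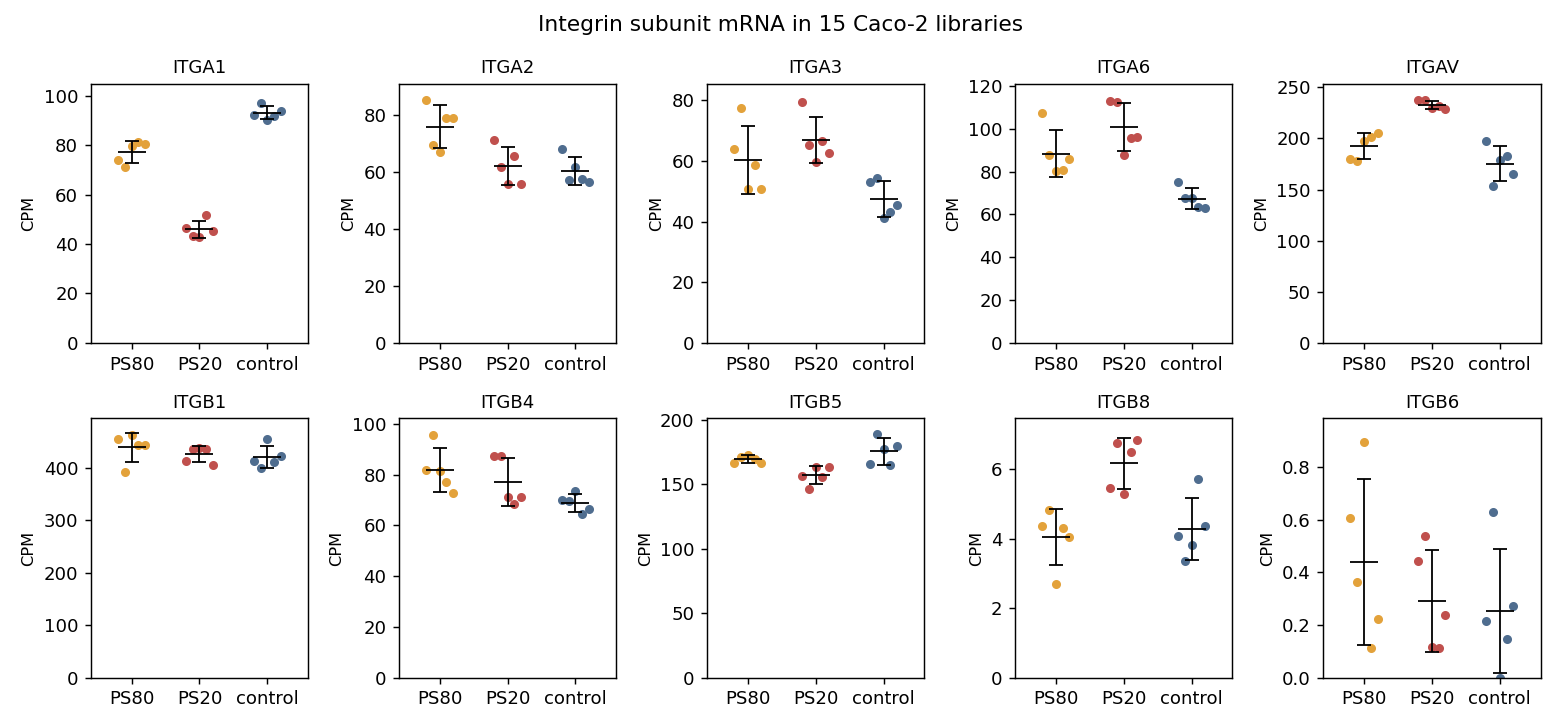
Levels of the 10 integrin subunit mRNAs in CPM (vertical axis, from 0) in each of the 5 libraries of PS80, PS20 and control, replicates 1 to 5 from left to right, with mean and SD. ITGA1 separates all 3 groups, PS20 lies above the other groups for ITGAV, PS80 and PS20 overlap each other above control for ITGA6, and ITGB6 stays under 1 CPM.

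ITGA1, the alpha chain of a collagen receptor, was the member with the largest change. It was measured at 74.0, 71.1, 79.6, 81.1 and 80.6 CPM in PS80 replicates 1 to 5, at 46.6, 43.1, 43.0, 51.8 and 45.3 CPM in PS20 replicates 1 to 5, and at 92.4, 97.2, 90.2, 92.0 and 93.9 CPM in control replicates 1 to 5. Every PS20 library lay below every PS80 library, and every PS80 library below every control library. ITGA1 fell by 1.02 ± 0.06 on the log2 scale with PS20 (SE, n = 5 per group, adjusted p = 6.893e-11, edgeR). With PS80 it fell by 0.27 ± 0.06 (adjusted p = 0.001518, edgeR), and PS80 exceeded PS20 by 0.75 ± 0.06 (adjusted p = 2.646e-08, edgeR). The gene ranked 26th by p among 12769 in the PS20 comparison, and 4.99% of the genes changed more in size. Of its exonic bases, 13.2% also lie in exons of PELO, PELO-AS1, RPL17P21 or ITGA2-AS1. PELO encodes a ribosome rescue factor. PELO averaged 42.6 ± 2.30 CPM with PS80, 43.4 ± 1.96 CPM with PS20 and 37.0 ± 2.07 CPM in control (SD, n = 5), so it moved the other way. PELO rose by 0.19 with PS80 (adjusted p = 0.01767, edgeR) and by 0.22 with PS20 (adjusted p = 0.005943, edgeR).

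ITGA2, the alpha chain of the second collagen receptor of epithelia, moved differently. Its levels were 85.1, 69.3, 67.1, 78.7 and 78.9 CPM in PS80 replicates 1 to 5, 71.1, 61.7, 55.7, 65.6 and 55.7 CPM in PS20 replicates 1 to 5, and 68.2, 57.3, 61.8, 57.4 and 56.6 CPM in control replicates 1 to 5. PS80 libraries lay mostly above the rest, though the lowest of them fell within the ranges of PS20 and control, and PS20 overlapped control throughout. ITGA2 rose by 0.34 ± 0.08 on the log2 scale with PS80 against control (adjusted p = 0.002624, edgeR). PS80 was higher than PS20 by 0.30 ± 0.08 (adjusted p = 0.005766, edgeR). For PS20 against control the log2 difference was 0.04, with a 95% interval from -0.13 to 0.21 (adjusted p = 0.687, edgeR). Within replicates 1 and 2 alone neither PS80 difference was called (0.30, adjusted p = 0.1167 against control and 0.21, adjusted p = 0.3007 against PS20, edgeR).

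ITGA6 and ITGA3 encode laminin-binding alpha chains, and both were higher with each emulsifier. ITGA6 was measured at 107.3, 87.7, 80.3, 80.8 and 86.0 CPM in PS80 replicates 1 to 5, at 112.8, 112.7, 87.8, 95.6 and 96.1 CPM in PS20 replicates 1 to 5, and at 75.2, 67.5, 67.8, 63.7 and 63.0 CPM in control replicates 1 to 5. All 10 exposed libraries lay above all 5 control libraries, while PS80 and PS20 overlapped. ITGA6 rose by 0.58 ± 0.09 on the log2 scale with PS20 (adjusted p = 1.003e-05, edgeR) and by 0.40 ± 0.08 with PS80 (adjusted p = 0.001142, edgeR). PS80 minus PS20 was -0.19 with a 95% interval from -0.36 to -0.02, which was not called (adjusted p = 0.08351, edgeR). It was called with scaling to library totals only (-0.21, adjusted p = 0.04495, edgeR), in replicates 3 to 5 alone (-0.17, adjusted p = 0.01825, edgeR), without PS20 replicate 3 (-0.24, adjusted p = 0.03854, edgeR) and without PS80 replicate 1 (-0.26, adjusted p = 0.01097, edgeR). A fit with the replicate number as a block called it too.

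ITGA3 was measured at 64.0, 77.5, 50.7, 58.6 and 50.8 CPM in PS80 replicates 1 to 5, at 79.5, 65.3, 59.8, 66.6 and 62.7 CPM in PS20 replicates 1 to 5, and at 53.0, 54.5, 41.3, 43.3 and 45.4 CPM in control replicates 1 to 5. All PS20 libraries exceeded all control libraries, whereas PS80 replicates 3 and 5 lay inside the control range. ITGA3 rose by 0.48 ± 0.11 on the log2 scale with PS20 (adjusted p = 0.001209, edgeR) and by 0.36 ± 0.11 with PS80 (adjusted p = 0.01687, edgeR). The PS80 call was lost without control replicate 4 (0.32, adjusted p = 0.05542, edgeR) or without PS80 replicate 2 (0.23, adjusted p = 0.06861, edgeR), the most deeply sequenced library. PS80 replicate 2 was also the only PS80 library counted with featureCounts 2.0.0, and the part of either trait was not tested. PS80 and PS20 differed by -0.13 with a 95% interval from -0.35 to 0.09 (adjusted p = 0.3714, edgeR). That difference was called without PS80 replicate 2 (-0.25, adjusted p = 0.04329, edgeR) and in replicates 3 to 5 alone (-0.25, adjusted p = 0.00522, edgeR).

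ITGB4, the beta chain that joins ITGA6 in hemidesmosomes, was measured at 81.8, 95.8, 81.4, 77.3 and 72.7 CPM in PS80 replicates 1 to 5, at 87.5, 87.5, 71.3, 68.5 and 71.0 CPM in PS20 replicates 1 to 5, and at 69.9, 69.7, 73.5, 64.5 and 66.4 CPM in control replicates 1 to 5. With PS80, 4 of 5 libraries exceeded the control range, and with PS20 replicates 1 and 2 exceeded it while the others lay inside. ITGB4 rose by 0.26 ± 0.08 on the log2 scale with PS80 (adjusted p = 0.01913, edgeR). That call was lost without control replicate 4 (0.23, adjusted p = 0.05805, edgeR) or PS80 replicate 2 (0.19, adjusted p = 0.06473, edgeR). For PS20 the log2 difference was 0.17, with a 95% interval from -0.01 to 0.34 (adjusted p = 0.1063, edgeR). The 2 emulsifiers differed by 0.09 with a 95% interval from -0.07 to 0.26 (adjusted p = 0.3983, edgeR).

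ITGAV, the alpha chain of Arg-Gly-Asp receptors among the 10 members, was highest with PS20. Its levels were 179.7, 177.6, 197.8, 201.2 and 205.5 CPM in PS80 replicates 1 to 5, 237.2, 237.4, 230.1, 231.3 and 228.8 CPM in PS20 replicates 1 to 5, and 197.2, 153.3, 179.3, 182.5 and 164.8 CPM in control replicates 1 to 5. The 5 PS20 libraries lay within a narrow band above all 10 others, and PS80 overlapped control. ITGAV rose by 0.41 ± 0.06 on the log2 scale with PS20 (adjusted p = 1.014e-05, edgeR), and PS80 was lower than PS20, at -0.28 ± 0.06 (adjusted p = 0.001075, edgeR). Against control the PS80 difference was 0.14, with a 95% interval from 0.01 to 0.26, and was not called (adjusted p = 0.08873, edgeR). With the replicate number as a block, in which same-numbered PS80 and control libraries count as pairs, it was called (0.14, adjusted p = 0.04434, edgeR). It was 0.04 in replicates 1 and 2 alone (adjusted p = 0.8675, edgeR), 0.20 in replicates 3 to 5 alone (adjusted p = 0.00205, edgeR), 0.17 without control replicate 1 (adjusted p = 0.02848, edgeR) and 0.17 without PS80 replicate 2 (adjusted p = 0.04729, edgeR).

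Among the beta partners of ITGAV, ITGB5 moved the other way with PS20. ITGB5, a chain of a vitronectin receptor, was measured at 166.1, 171.3, 172.7, 169.8 and 166.0 CPM in PS80 replicates 1 to 5, at 156.6, 146.2, 163.0, 155.5 and 163.2 CPM in PS20 replicates 1 to 5, and at 165.5, 189.2, 176.9, 165.2 and 179.8 CPM in control replicates 1 to 5. Every PS20 library lay below all 10 others. ITGB5 fell by 0.16 ± 0.05 on the log2 scale with PS20 (adjusted p = 0.01063, edgeR), a call that was lost in replicates 1 and 2 alone (-0.24, adjusted p = 0.1275, edgeR) and in replicates 3 to 5 alone (-0.10, adjusted p = 0.07233, edgeR). For PS80 against control the difference was -0.05, with a 95% interval from -0.15 to 0.05 (adjusted p = 0.4393, edgeR). PS80 minus PS20 was 0.11, with a 95% interval from 0.01 to 0.21 (adjusted p = 0.0896, edgeR), not called although the ranges were apart.

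ITGB8, the chain of a receptor that activates latent TGF-beta, was low, at 16 to 200 reads per library. Its levels were 4.35, 4.84, 2.68, 4.32 and 4.04 CPM in PS80 replicates 1 to 5, 5.47, 6.75, 5.30, 6.48 and 6.83 CPM in PS20 replicates 1 to 5, and 4.07, 3.37, 3.82, 5.72 and 4.37 CPM in control replicates 1 to 5. PS20 lay above PS80 without overlap, and only control replicate 4 reached into the PS20 range. ITGB8 rose by 0.48 ± 0.17 on the log2 scale with PS20 (adjusted p = 0.02702, edgeR), and PS80 was lower than PS20, at -0.55 ± 0.16 (adjusted p = 0.0114, edgeR). Leaving out any 1 of control replicates 1, 2 and 3 or PS20 replicates 2, 4 and 5 ended the PS20 call (0.39 to 0.47, adjusted p = 0.05026 to 0.08636, edgeR). Within replicates 1 and 2 alone the PS20 difference was 0.74 (adjusted p = 0.07126, edgeR) and within replicates 3 to 5 alone it was 0.30 (adjusted p = 0.2142, edgeR). PS80 minus control was -0.07, with a 95% interval from -0.43 to 0.29 (adjusted p = 0.7923, edgeR). In replicates 1 and 2 alone, PS80 minus PS20 was -0.39 (adjusted p = 0.3376, edgeR).

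ITGB6, the epithelial chain of another TGF-beta activating receptor, had 1 to 15 reads per PS80 library, 1 to 4 per PS20 library and 0 to 6 per control library. Its levels were 0.114 to 0.894 CPM with PS80, 0.112 to 0.540 CPM with PS20 and up to 0.632 CPM in control. The 0 in control replicate 3 allows a level of up to 0.716 CPM (3 counts of that library, counting error only). The ranges of the groups overlapped, and because ITGB6 failed the low-count filter no difference was tested. Of its exonic bases, 16.7% also lie in another annotated gene, which had no counts.

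ITGB1, the common beta chain of 5 of the receptors above, was the most abundant member. It averaged 439 ± 27.7 CPM with PS80, 426 ± 15.4 CPM with PS20 and 420.1 ± 21.2 CPM in control (SD, n = 5). The ranges of all 3 groups overlapped. The log2 difference was 0.02 for PS20 against control (95% interval -0.08 to 0.13, adjusted p = 0.7495, edgeR) and 0.06 for PS80 against control (-0.04 to 0.17, adjusted p = 0.3467, edgeR). PS80 minus PS20 was 0.04, with a 95% interval from -0.06 to 0.15 (adjusted p = 0.5423, edgeR).

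**Figure D2:**
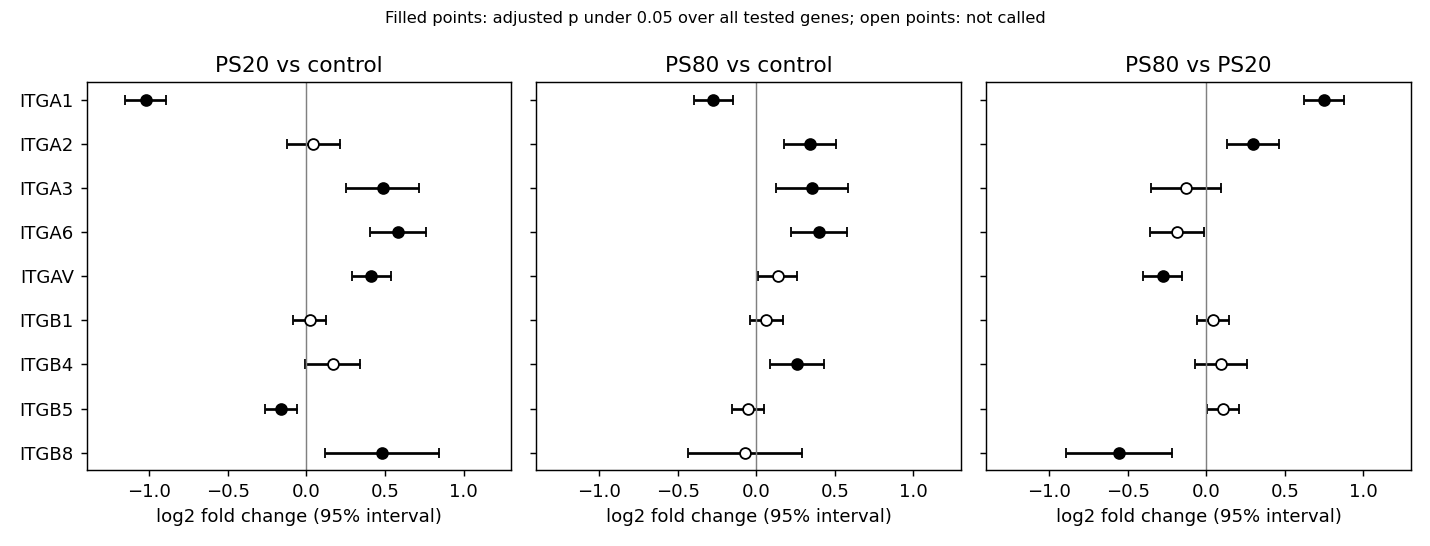
Log2 fold changes (horizontal axis) with 95% intervals for the 9 tested members in 3 comparisons, filled where the adjusted p was under 0.05. ITGA1 lies at -1.02 for PS20 against control and at 0.75 for PS80 against PS20, and the intervals of ITGB1 include 0 in all 3.

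For the related pair of emulsifiers at the same dose and time, 1 comparison per member was made, with p-values adjusted over all 12769 genes. Relative to the laurate ester PS20, the oleate ester PS80 left ITGA1 and ITGA2 higher and ITGAV and ITGB8 lower. For ITGA3, ITGA6, ITGB1, ITGB4 and ITGB5 no difference passed the test over all 15 libraries, and the intervals given above bound it, with ITGA3 and ITGA6 called under the other settings named there.

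Because integrins work as heterodimers, mRNA ratios of alpha over beta chains were taken in each library from levels per kilobase, as a description without a test. ITGA1 over ITGB1 was 0.138 ± 0.00695 with PS80, 0.0847 ± 0.00712 with PS20 and 0.175 ± 0.0126 in control (SD, n = 5), and the 3 groups did not overlap. ITGA6 over ITGB4 was 1.10 ± 0.161 with PS80, 1.33 ± 0.0646 with PS20 and 0.992 ± 0.0596 in control. All PS20 libraries (1.25 to 1.41) exceeded all control libraries (0.933 to 1.09) in that ratio, and PS80 libraries ran from 0.926 to 1.33 across both. ITGAV over ITGB5 was 0.383 ± 0.0270 with PS80, 0.501 ± 0.0302 with PS20 and 0.339 ± 0.0507 in control, the PS20 libraries standing above all others. ITGAV over ITGB8, whose beta chain is scarce, was 39.1 ± 11.3 with PS80, 30.0 ± 3.75 with PS20 and 33.0 ± 5.52 in control, with overlapping ranges. These are ratios of mRNA and do not measure receptors at the cell surface.

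**Figure D3:**
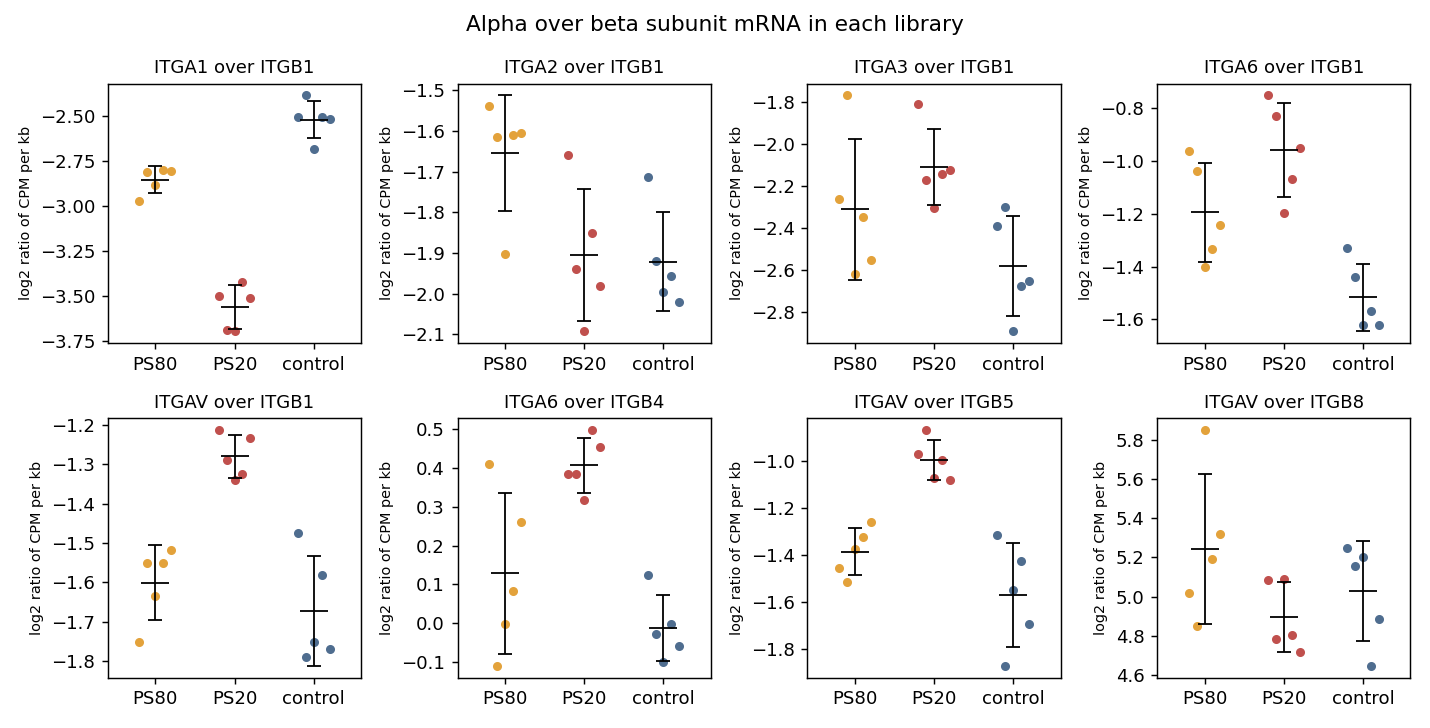
Log2 ratios of alpha over beta subunit levels per kilobase (vertical axis, not starting at 0) for 8 known heterodimers in the 5 libraries of PS80, PS20 and control, with mean and SD. ITGA1 over ITGB1 separates all 3 groups, and ITGAV over ITGB5 places PS20 above the other groups.

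Sums and shares cover the 10 members only and leave out other expressed chains. Among these, ITGA7 averaged 5.24 CPM per kb with PS80, 3.13 with PS20 and 7.09 in control. ITGA5 averaged 5.80, 5.46 and 3.72 CPM per kb in the same order. The summed alpha level of the members was 43.1 ± 2.30 CPM per kb with PS80, 44.3 ± 3.24 with PS20 and 36.7 ± 2.21 in control. The summed beta level was 68.6 ± 1.42 CPM per kb with PS80, 65.2 ± 0.993 with PS20 and 66.3 ± 2.39 in control. ITGA1 made up 9.70 ± 0.900% of the summed alpha level with PS80, 5.61 ± 0.519% with PS20 and 13.7 ± 0.928% in control. ITGA6 made up 30.6 ± 2.30% with PS80, 34.1 ± 1.79% with PS20 and 27.5 ± 0.564% in control. ITGA1 thus took a smaller part, and ITGA6 a larger part, in every exposed library than in any control library. The other collagen receptor chain, ITGA2, took 22.2 ± 1.33% with PS80, 17.7 ± 0.906% with PS20 and 20.8 ± 0.619% in control. ITGA3 took 14.3 ± 2.48% with PS80, 15.4 ± 0.785% with PS20 and 13.2 ± 1.43% in control, with overlapping ranges. Among beta chains, ITGB5 took 37.9 ± 0.753% with PS80, 36.9 ± 1.91% with PS20 and 40.6 ± 1.72% in control, and ITGB1 took 44.0 ± 2.40% with PS80, 44.9 ± 1.43% with PS20 and 43.5 ± 1.59% in control.

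**Figure D4:**
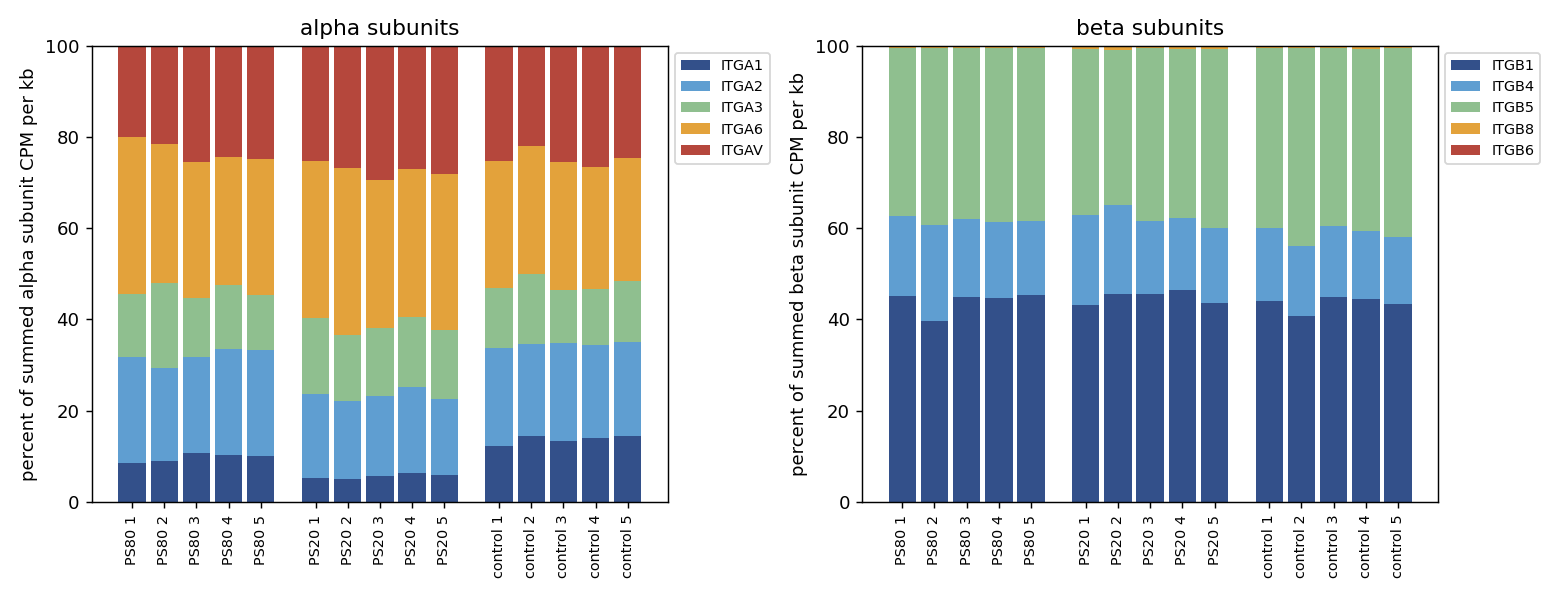
Share of each member in the summed level per kilobase (percent, vertical axis) of the 5 alpha chains (left) and the 5 beta chains (right) in each of the 15 libraries. The ITGA1 segment is 5.05% to 6.32% with PS20 and 12.3% to 14.5% in control, while the ITGB8 and ITGB6 segments are under 1% throughout.

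The members also differed in how they varied between libraries of 1 group. Across the 15 libraries log2 levels of ITGA3 and ITGA6 correlated at r = 0.82 and those of ITGA1 and ITGAV at r = -0.86. For ITGAV with ITGB5 r was -0.87, and all of these values include the group differences. After subtracting group means, r was 0.52 for ITGA3 with ITGA6, 0.60 for ITGA3 with ITGB4, 0.71 for ITGA2 with ITGA6 and 0.13 for ITGA1 with ITGAV (n = 15). Other pairs stayed negative, among them ITGA3 with ITGB1 (-0.70), ITGAV with ITGB5 (-0.65) and ITGA1 with ITGB4 (-0.55). In all 3 groups ITGA3 was higher in replicate 1 than in replicates 3 to 5. Among 9872 protein-coding genes with a mean of at least 5 CPM, the levels most alike to ITGA1 included those of DDX46 and SNRPD3 (both r = 0.98 over the 15 libraries). For ITGA6 they were PTCD2 (r = 0.98), ELOVL6 and LIG3 (both r = 0.96), and for ITGAV TMEM41B and LNPK (both r = 0.96) and TRIM8 (r = 0.94). These libraries share their group structure, so many genes follow the same profile.

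Integrin subunits outside the 10 were mostly too low to test, 5 of 16 passing the filter. With PS20, 1 of the 5 rose and 3 fell (80% called, beside 48.3% of all genes). With PS80, 1 rose and 2 fell (60%, beside 33.4% of all genes). ITGA5, the alpha chain of the classical fibronectin receptor, averaged 42.9 ± 3.43 CPM with PS80, 40.3 ± 3.45 CPM with PS20 and 27.5 ± 2.40 CPM in control (SD, n = 5), without overlap between exposed and control libraries. It rose by 0.66 on the log2 scale with PS80 (adjusted p = 3.422e-06, edgeR) and by 0.57 with PS20 (adjusted p = 7.465e-06, edgeR). ITGA7, a laminin-binding chain best known from muscle, averaged 47.6 ± 5.73 CPM with PS80, 28.4 ± 2.91 CPM with PS20 and 64.4 ± 7.26 CPM in control. It fell by 0.44 with PS80 (adjusted p = 0.0007128, edgeR) and by 1.19 with PS20 (adjusted p = 2.569e-09, edgeR), and PS80 was higher than PS20 by 0.75 (adjusted p = 2.824e-06, edgeR). ITGAE, the alpha chain of an E-cadherin receptor of lymphocytes, fell by 0.45 with PS80 (adjusted p = 0.02638, edgeR) and by 0.49 with PS20 (adjusted p = 0.01398, edgeR). ITGA9 fell by 0.37 with PS20 (adjusted p = 0.001983, edgeR) and differed by -0.14 with PS80 (adjusted p = 0.2347, edgeR).

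Of 25 tested matrix ligands, 8 rose and 9 fell with PS20 (68.0% called, beside 48.3% of all genes), and 8 rose and 6 fell with PS80 (56.0%, beside 33.4%). The list medians were -0.05 for PS20 and 0.12 for PS80 on the log2 scale, beside 0.01 and 0.00170 over all genes. LAMA1, the alpha chain of laminin-111, averaged 109.2 ± 16.4 CPM with PS80, 47.6 ± 4.51 CPM with PS20 and 217 ± 35.9 CPM in control (SD, n = 5), the 3 groups lying fully apart. It fell by 0.99 with PS80 (adjusted p = 6.322e-07, edgeR) and by 2.19 with PS20 (adjusted p = 5.691e-12, edgeR). LAMA3, of the hemidesmosomal laminin-332, fell by 0.31 with PS80 (adjusted p = 0.008773, edgeR) and by 0.82 with PS20 (adjusted p = 2.518e-07, edgeR). COL6A2, a collagen VI chain, averaged 10.6 ± 3.95 CPM with PS80, 17.2 ± 2.69 CPM with PS20 and 3.37 ± 0.733 CPM in control. It rose by 1.64 with PS80 (adjusted p = 1.548e-05, edgeR) and by 2.30 with PS20 (adjusted p = 5.029e-08, edgeR). The TGF-beta genes of the list divided. TGFB2 fell by 1.23 with PS80 and by 1.38 with PS20 (adjusted p = 7.303e-06 and 9.234e-07, edgeR). Its level was low, averaging 3.70 CPM with PS80, 3.34 CPM with PS20 and 8.92 CPM in control. TGFB1 rose by 0.73 with PS80 and by 0.63 with PS20 (adjusted p = 1.516e-05 and 3.006e-05, edgeR).

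Of 13 tested genes for integrin tail binders and regulators of integrin activation, 3 rose and 5 fell with PS20 (61.5% called, beside 48.3% of all genes). With PS80, 4 rose and 1 fell (38.5%, beside 33.4% of all genes). The talins, which switch integrins to their active form, fell with PS20, TLN1 by 0.69 (adjusted p = 4.206e-09, edgeR) and TLN2 by 0.76 (adjusted p = 4.623e-08, edgeR). Against control PS80 left TLN1 at -0.04 (adjusted p = 0.5859, edgeR) and TLN2 at -0.10 (adjusted p = 0.2794, edgeR), and PS80 exceeded PS20 by 0.64 for TLN1 (adjusted p = 4.328e-08, edgeR) and by 0.66 for TLN2 (adjusted p = 8.005e-07, edgeR). FLNA, a filamin that competes with talin for the beta tail, rose by 0.53 with PS80 (adjusted p = 2.273e-05, edgeR) and fell by 0.25 with PS20 (adjusted p = 0.009626, edgeR). DAB2, an endocytic adaptor for beta tails, fell by 0.44 with PS80 and by 0.58 with PS20 (adjusted p = 0.0001383 and 1.93e-06, edgeR). SHARPIN, a protein that keeps integrins inactive, rose by 0.42 with PS80 and by 0.30 with PS20 (adjusted p = 0.0001968 and 0.002422, edgeR).

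Of 30 tested adhesion adaptors and kinases, 2 rose and 9 fell with PS20 (36.7%, below the background of that comparison), and 9 rose and 8 fell with PS80 (56.7%, beside 33.4% of all genes). Set against PS20, PS80 left 13 of the 30 higher and 1 lower, beside 18.2% higher and 17.3% lower of all genes. VCL, or vinculin, which links talin to actin, rose by 0.27 with PS80 (adjusted p = 0.0004629, edgeR) and fell by 0.35 with PS20 (adjusted p = 1.648e-05, edgeR). ZYX (zyxin), PARVB (beta-parvin) and ACTN1 (alpha-actinin) rose by 0.58, 0.60 and 0.30 with PS80 (adjusted p = 7.556e-07, 6.266e-06 and 9.686e-05, edgeR), ZYX having a near-identical scaffold copy that makes its counts uncertain. TNS3, a tensin, fell by 0.27 with PS80 and by 0.56 with PS20 (adjusted p = 9.066e-05 and 3.084e-09, edgeR). KANK2, a talin-binding protein at the rim of adhesions, fell by 0.36 with PS80 and by 0.63 with PS20 (adjusted p = 0.0003154 and 2.199e-07, edgeR).

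All 12 genes of the hemidesmosome and lateral partner list were tested. Of these, 4 rose and 4 fell with PS20 (66.7% called, beside 48.3% of all genes). With PS80, 5 rose and 2 fell (58.3%, beside 33.4% of all genes). PLEC (plectin), which ties ITGB4 to keratin, rose by 0.36 with PS80 and by 0.37 with PS20 (adjusted p = 0.0002614 and 8.414e-05, edgeR). DST (dystonin), the other plakin of hemidesmosomes, fell by 0.27 with PS80 and by 0.61 with PS20 (adjusted p = 0.0141 and 5.417e-06, edgeR). CD151, the tetraspanin partner of ITGA3 and ITGA6, fell by 0.36 with PS20 (adjusted p = 6.162e-05, edgeR) and differed by 0.03 with PS80 (adjusted p = 0.7848, edgeR). The tetraspanin TSPAN8 fell by 0.56 with PS80 and by 1.21 with PS20 (adjusted p = 0.03103 and 6.679e-05, edgeR), and CD9 rose by 0.22 with PS80 and by 0.28 with PS20 (adjusted p = 0.0006362 and 2.033e-05, edgeR). Of 11 tested genes of receptor traffic, 3 rose and 6 fell with PS20 (81.8% called, beside 48.3% of all genes). With PS80, 2 rose and 3 fell (45.5%, beside 33.4% of all genes). RAB25, which recycles the fibronectin receptor, rose by 0.22 with PS80 and by 0.54 with PS20 (adjusted p = 0.01015 and 5.334e-07, edgeR). VPS35, the retromer core, fell by 0.35 with PS80 and by 0.46 with PS20 (adjusted p = 2.811e-06 and 1.754e-08, edgeR).

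**Figure D5:**
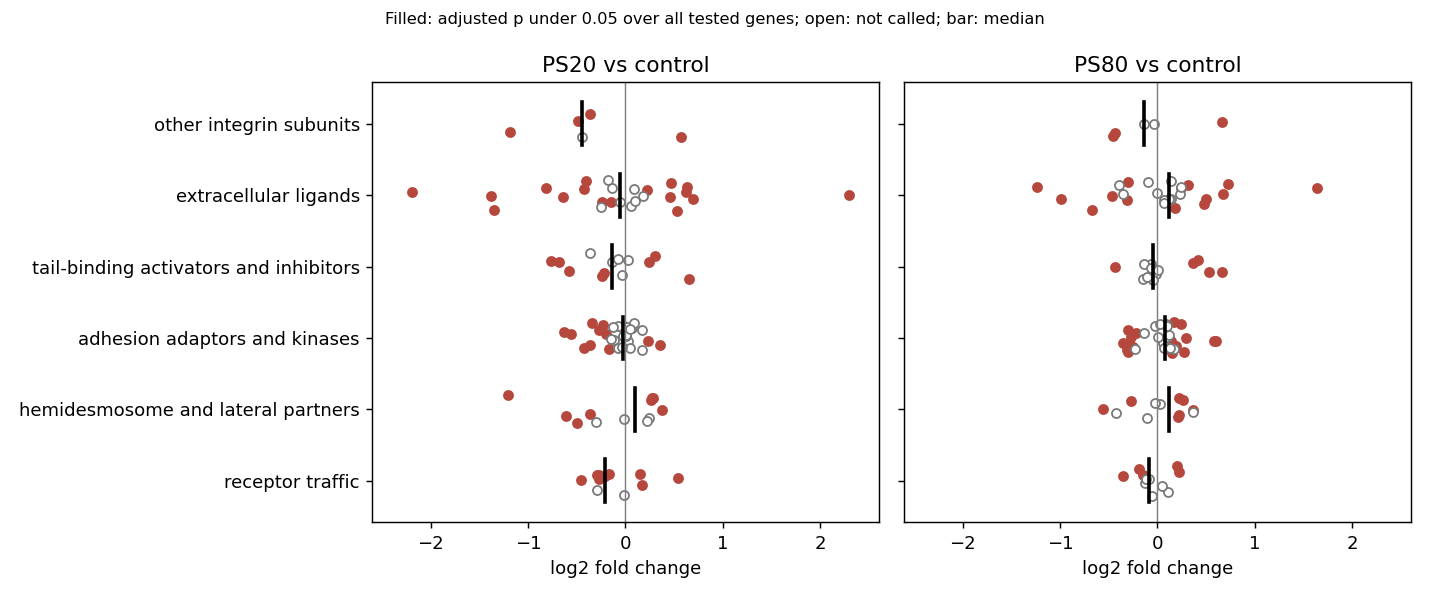
Log2 fold changes (horizontal axis) of the tested genes of 6 lists around the integrins, for PS20 against control and PS80 against control, filled where the adjusted p was under 0.05, with the list median as a bar. LAMA1 is the lowest point, at -2.19 with PS20, COL6A2 the highest, at 2.30 with PS20, and every list holds called genes in both directions.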

How the data were processed

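RNA of 15 Caco-2 libraries was measured, and the integrin rows were read from the deposited tables. Per the file headers, the authors made raw counts per gene with featureCounts (version 2.0.0 in 11 libraries, 2.0.3 in PS80 replicates 1, 3, 4 and 5) on GENCODE release 42, scaffolds included; reads needed a mapping quality of at least 10, and no option set strand or read pairs. Gene length (joined exons) was copied from the same deposited files. Per the submitters' processing notes, cutadapt, STAR 2.7.9a, DESeq2 1.32.0 and GRCh38 were used. Antisense partners cannot be separated without strand, and reads on exons shared by several genes are left out by default.

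Genes were kept by filterByExpr (minimum count 10, minimum total 15) and compared in R 4.3.3 with edgeR 4.0.16, using TMM scaling, its quasi-likelihood test and 1 term per group over 15 libraries. Adjustment was by Benjamini-Hochberg over 12769 genes, with a threshold of 0.05. CPM used TMM-scaled totals. Log2 CPM for correlations had a prior count of 2. Fits were tested on simulated data. Alternatives were RLE and plain library totals, no filter, DESeq2 1.42.0, limma 3.58.1 voom, a replicate block, the compared groups only, replicate subsets and leaving out each library.

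The members, lists and tests were chosen with earlier results of these data known. Named genes were all members, up to 4 genes per list and comparison with the smallest p among those that passed, and 3 genes most alike to each of 3 members. A few of these are not reported here. Replicate numbers are shared between groups in the titles. Same-numbered PS80 and control libraries deviated together from their group means (r = 0.10 to 0.30 in all 5). However, PS80 replicates 1 and 5 correlated best with control replicates 2 and 4. For PS20 and control r was -0.03 to 0.25, and for PS80 and PS20 it was 0.07 to 0.29. The main tests used no pairing, and only the replicate block treated same-numbered libraries as pairs. No 2 libraries were identical. The planned ITGAV over ITGB6 ratio was left out because ITGB6 was at 0 in 1 library.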

Additional observations from a re-analysis of the deposited data

Results flagged for a closer look

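Within groups of 5 libraries, a library was singled out where its gap to the nearest other library, as a share of the group's range, exceeded Dixon's 95% critical value. Of 30 groups examined (10 members in 3 groups), 2 met this, and chance gives about 1 in 20. ITGA6 in PS80 replicate 1 was 107.299 CPM, above the other PS80 libraries at 80.3 to 87.7 CPM. ITGB1 in PS80 replicate 2, the deepest library, was 391.885 CPM, below the other PS80 libraries at 443 to 462 CPM. PS80 replicate 2 was also the only PS80 library counted with featureCounts 2.0.0. No cause was tested.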

How the results depend on the processing

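ITGA1 kept its direction and its call in all 3 comparisons under every alternative run, as did ITGA6, ITGA3 (PS20) and ITGAV (PS20) against control. Of the single-member values under alternatives, 612 kept direction and side of the threshold, 19 lost the call, 12 gained it and 5 changed sign, none of these 5 called. The sign changes were ITGA2 for PS20 against control without PS20 replicate 1 (-0.007765; range over left-out libraries -0.007765 to 0.08404), ITGB1 for PS80 against PS20 in replicates 1 and 2 alone (-0.003209), and ITGB8 for PS80 against control in replicates 1 and 2 alone (0.3477) and without control replicate 4 or PS80 replicate 3 (range over left-out libraries -0.1664 to 0.09879). In replicates 1 and 2 alone 3116 (PS20 against control), 2025 (PS80 against control) and 1397 genes (PS80 against PS20) were called, from 6 libraries instead of 15, and 2 members differed between PS80 and PS20. Leaving out 1 library gave 5 to 6 members for PS20, 3 to 6 for PS80 (3 without control replicate 4, 6 without control replicate 1; the cause was not tested) and 4 to 5 between the emulsifiers. Without the low-count filter, ITGB5 and ITGB8 lost their PS20 calls (adjusted p = 0.05411 and 0.08674, edgeR). With library totals only, ITGA6 differed between PS80 and PS20 (-0.21, adjusted p = 0.04495, edgeR). The replicate block called 6871, 5160 and 5451 genes and 7, 6 and 5 members for PS20 against control, PS80 against control and PS80 against PS20. Beside ITGAV (PS80), it added ITGB4 for PS20 (0.16, adjusted p = 0.03271, edgeR) and ITGA6 between the emulsifiers (-0.19, adjusted p = 0.005584, edgeR), and it changed no other member's call. Depth limits ITGB6 and ITGB8.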
